A study of Arabidopsis thaliana with 6 samples.

Results

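A group of 68 nuclear genes was steady among wild-type Col-0 seed libraries and low in every seed library of tt7-7, which is mutated in the gene TT7 for flavonoid 3'-hydroxylase. A gene belonged to the set if its identifier was nuclear, if its highest Col-0 value was under 2 times its lowest, if its mean in Col-0 was at least 2.5 times its mean in tt7-7, and if each tt7-7 value lay below each Col-0 value. Genes of the light-harvesting complexes (LHC) and of photosystems I and II (PSA and PSB) were set aside, which removed 10 genes that met the other conditions. The 68 genes were drawn from 16967 genes of the table, of which 16857 were nuclear and 15393 were nuclear and steady in Col-0. Steady refers to that 2-fold limit only. The median range within Col-0 was 1.53-fold in the set, wider than the 1.35-fold of nuclear genes of the table. Because the contrast between genotypes chose the genes, their ratios and fold changes below are descriptions and not tests.

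The study compared Arabidopsis thaliana seeds 8 days old, counted from pollination, with 3 samples of Col-0 and 3 of tt7-7. Col-0 is a standard laboratory accession, and TT7 encodes the enzyme that hydroxylates the B ring of flavonoids at its 3' position, a step toward the tannins of the seed coat. The labels do not say whether samples came from separate plants, so spreads and p-values cover the differences between these samples only. Total RNA came from whole seeds, in which fewer cells of a type and less RNA per cell cannot be told apart. TT7 itself measured 499, 272 and 240 RPKM (reads scaled to transcript length and to library size) in the Col-0 samples, given here and below by replicate number, and 86.0, 97.4 and 103 RPKM in those of tt7-7. Its levels in the mutant lay below all wild-type levels, and its range within Col-0 of 2.08-fold kept it out of the set.

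At this age the Arabidopsis embryo is green and is filling with oil and storage protein, while the seed coat makes mucilage and tannins. Green embryos carry out photosynthesis, and their Rubisco refixes carbon dioxide that is released during oil synthesis. Oil is stored in droplets coated by oleosins, and the elongase encoded by FAE1 (KCS18 in the annotation) makes the very-long-chain fatty acids of seed oil. The epidermis secretes lipid transfer proteins, and growing cells loosen their walls with expansins and xyloglucan endotransglucosylases. Photosynthetic, oil, lipid transfer and wall-loosening genes are among the 68, while storage proteins, mucilage genes and tannin genes are not.

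The set was mixed in function. By the RefSeq products, 14 genes encode cell wall or apoplast proteins, 10 receptors, transcription factors or signalling proteins and 8 other enzymes and defence proteins. Plastid carbon fixation and electron transport, oleosins and lipid synthesis, membrane transport, and aspartyl proteases with serine carboxypeptidase-like proteins have 6 genes each. The lipid transfer protein superfamily has 5, and 7 genes are uncharacterized or non-coding. These 9 classes were assigned after the values were seen. Of the 68 genes, 65 are protein coding.

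Mean levels in Col-0 ran from 2.43 to 3938 RPKM with a median of 20.1, against a median of 9.74 RPKM for nuclear genes of the table. The ratio of Col-0 to tt7-7 had a median of 2.89 and a highest value of 6.98. It reached 3 in 23 genes and 4 in 4 genes. Just inside the limit stood CP12-2 and PETE1, both at 2.51, and SWEET13 at 2.53. Just outside stood the sucrose synthase SUS2 at 2.49 and, at 2.48 each, GAMMA-TIP and AT2G28790. The ratios therefore ran on without a gap at the limit. A further 101 nuclear genes met the ratio and the non-overlap but varied 2-fold or more within Col-0. Their median ratio was 5.42, and they include the 11 storage and oil body genes described further on.

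**Figure D1:**
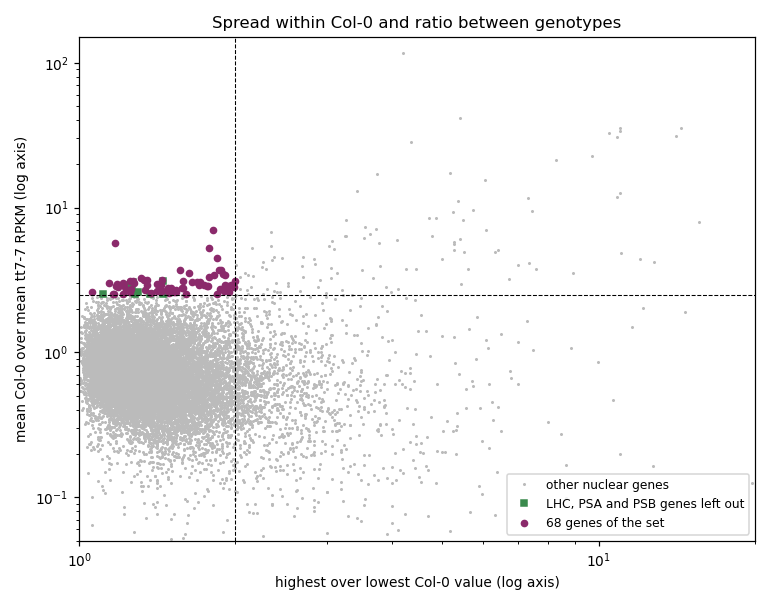
Each point is a nuclear gene, with its highest over its lowest Col-0 value on the x axis and its mean Col-0 over its mean tt7-7 RPKM on the y axis, both on log axes. Purple circles are the 68 genes, green squares the 10 LHC, PSA and PSB genes set aside, and dashed lines mark the limits of 2 and 2.5; most of the set lies between ratios of 2.5 and 4.

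In the fit of limma on log2(RPKM + 1) across all 16663 tested genes, 8.47% of genes were lower in tt7-7 at an adjusted p under 0.05 (Benjamini-Hochberg) and 51.1% were higher, 59.6% in either direction. Of the 68 genes, 66 were tested and 66 were called lower, which follows from how they were chosen. Their log2 fold changes ran from -2.92 to -1.03 with a median of -1.40, while the median of all tested genes was 0.44. Among nuclear genes, 9.35% had every tt7-7 value below every Col-0 value and 57.3% every value above. These shares depend on scaling. When samples were scaled by median ratios in place of library totals, 4597 genes were called lower and 4304 higher, against 1412 lower and 8517 higher as deposited. The rule then found 406 genes, of which 52 were among the 68.

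A run of 3 adjacent genes of the Rubisco small subunit holds the only directly neighbouring genes of the set. RBCS3B, RBCS2B and RBCS1B lie side by side on the minus strand of chromosome 5, at chr5:15376988-15378642, chr5:15380907-15382071 and chr5:15383167-15385320 of TAIR10.1, and each has 3 exons. To show how alike or unlike their upstream regions are, the 250 bases before each annotated start are printed beside those of LTP2 (chr2:16128176-16129399, plus strand), the gene with the largest ratio. Sequences are from RefSeq TAIR10.1, 5' to 3' on the gene's strand, and capitals mark matches on either strand to the motifs searched.
RBCS3B promoter, chr5:15378643-15378892, minus strand: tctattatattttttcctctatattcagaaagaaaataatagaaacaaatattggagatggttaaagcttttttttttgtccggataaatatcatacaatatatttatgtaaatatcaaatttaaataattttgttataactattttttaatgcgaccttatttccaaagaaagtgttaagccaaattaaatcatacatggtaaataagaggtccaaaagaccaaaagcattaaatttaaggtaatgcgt
RBCS2B promoter, chr5:15382072-15382321, minus strand: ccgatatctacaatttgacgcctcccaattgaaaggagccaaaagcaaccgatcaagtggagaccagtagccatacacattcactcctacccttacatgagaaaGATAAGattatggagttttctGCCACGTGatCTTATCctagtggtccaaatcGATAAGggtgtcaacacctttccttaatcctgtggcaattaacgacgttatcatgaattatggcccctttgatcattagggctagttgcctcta
RBCS1B promoter, chr5:15385321-15385570, minus strand: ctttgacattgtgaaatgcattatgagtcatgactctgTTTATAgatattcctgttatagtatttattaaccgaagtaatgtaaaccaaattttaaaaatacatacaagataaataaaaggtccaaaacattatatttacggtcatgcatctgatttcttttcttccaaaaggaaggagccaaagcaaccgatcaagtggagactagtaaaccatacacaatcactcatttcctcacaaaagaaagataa
LTP2 promoter, chr2:16127926-16128175, plus strand: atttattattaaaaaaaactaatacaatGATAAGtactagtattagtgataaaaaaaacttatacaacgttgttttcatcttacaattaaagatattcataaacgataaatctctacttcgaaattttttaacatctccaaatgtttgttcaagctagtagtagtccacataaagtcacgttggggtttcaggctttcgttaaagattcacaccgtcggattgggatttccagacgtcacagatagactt

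Positions are counted from the annotated start, with 1 as its first base. The RBCS2B promoter held the I-box GATAAG at -146, -115 and -94, the middle match on the opposite strand, and the G-box CACGTG at -123, between the I-boxes at -146 and -115. The ABRE form ACGTGGC matched at -125 on the opposite strand and overlapped the G-box. I-boxes and G-boxes are known from light-regulated promoters, and ABRE from promoters that respond to abscisic acid. In RBCS1B the I-box matched at -5 and 1, across the annotated start, and TATAAA at -212 on the opposite strand. RBCS3B had none of the motifs in this window. LTP2 had the I-box at -222 and, across its start, at -3. A missing match says only that these letters are not in the window, whose place depends on the annotated start.

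Over the 65 protein-coding promoters (250 bases before to 50 after the start, both strands), 17 held the I-box GATAAG. That is 26.2%, with a 95% Wilson interval of 17.0% to 37.95%, against 14.9% of 16597 promoters of the table and 14.6% of all 27443. The interval treats the promoters as separate draws and is not a test. Of the 17, RBCS2B, RBCS1B, CP12-2, PETE1 and FBA5 serve carbon or electron flow. The rest are LTP2, TMM, EXPA11, OCT5, GDPD6, AT1G48990, AT2G45180, AT3G04200, AT4G29020, AT5G03350, AT5G15780 and AT5G44410, which have other products. In PETE1 and AT5G15780 the only I-box match lay after the start, at 11 and 42. The G-box was in 7 promoters (10.8%, against 9.17% of the table), among them OLEO3, scpl17 and RBCS2B. The site II motif TGGGCC, known from promoters of ribosomal protein and cell cycle genes, was in 4 (6.15%, against 20.2%). TGGGCT, another form of site II, was in 8 (12.3%, against 17.6%). The telo-box AAACCCTA was in 0 of 65, with a Wilson upper bound of 5.58%, against 5.66%. TATAAA was in 34 (52.3%, against 51.5%), the evening element AAAATATCT in 2 (3.08%, against 3.12%), and ACGTGGC and ACGTGTC in 4 each (6.15%, against 5.07% and 5.31%). The shares of the I-box and of TGGGCC stood furthest from those of the table. With the I-box counted only on the gene's strand, 15.4% of the set and 7.62% of the table held it, and in the 150 bases before the start 13.8% and 7.68%.

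Among the plastid genes, RBCS3B had the highest level of the set, with 3850, 3588 and 4376 RPKM in Col-0 and 1113, 1409 and 1614 RPKM in tt7-7. RBCS2B was at 2000, 1346 and 1636 RPKM and at 570, 563 and 649 RPKM. RBCS1B, at a much lower level, was at 184, 158 and 171 RPKM and at 66.9, 71.5 and 63.4 RPKM. The ratios were 2.86, 2.80 and 2.54, and no tt7-7 library stood apart for all 3 genes. Their coding sequences are 96.7% to 97.3% identical, so reads could have been divided among them in ways the table does not show. The fourth member of the family, RBCS1A, whose coding sequence is 89.9% to 90.1% identical to theirs, was the most abundant, at 15515 ± 1019 RPKM in Col-0 (SD, n = 3) and 6704 ± 1020 in tt7-7. RBCS1A fell by 1.22 on the log2 scale (adjusted p = 0.00671, limma), and its ratio lay under 2.5.

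CP12-2 encodes a small protein that binds GAPDH and phosphoribulokinase in the dark. It was at 242, 274 and 281 RPKM in Col-0 and at 81.7, 124 and 111 RPKM in tt7-7. PETE1, a plastocyanin that carries electrons to photosystem I, was at 99.98, 116 and 121 RPKM and at 39.3, 38.9 and 56.1 RPKM. CCB3, which takes part in attaching heme to cytochrome b6f, was at 38.9, 48.1 and 45.1 RPKM and at 14.7, 12.7 and 21.3 RPKM. The ranges within tt7-7 of CP12-2, PETE1 and CCB3 were 1.52-fold, 1.44-fold and 1.68-fold. Over the 6 plastid genes the median was 1.45-fold, the narrowest of the classes but wider than the 1.24-fold of nuclear genes of the table.

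The lipid transfer protein superfamily held the gene with the largest ratio. LTP2, a secreted protein of the epidermis that binds lipids, was at 128, 231 and 228 RPKM in Col-0 and at 32.8, 10.2 and 41.1 RPKM in tt7-7, a ratio of 6.98. AT1G62500, a protein of the same superfamily, was at 289, 513 and 404 RPKM and at 79.4, 29.7 and 121 RPKM, a ratio of 5.25. In both genes tt7-7 replicate 2 was the lowest library by a wide margin. AT2G10940 was at 463, 426 and 321 RPKM and at 142, 97.9 and 145 RPKM. AT2G45180 was at 46.4, 89.8 and 57.0 RPKM and at 13.2, 17.6 and 35.9 RPKM. Here the mutant library with the lowest level was replicate 1 and not replicate 2. The remaining gene, AT5G48490, had a ratio of 2.85.

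Other lipid transfer proteins stood higher in level than LTP2. LTP3 was at 2941, 2001 and 2006 RPKM in Col-0 and at 2905, 2868 and 1844 RPKM in tt7-7, with groups that overlapped (log2 change 0.13, adjusted p = 0.712, limma). LP1 was at 959, 626 and 622 RPKM and at 908, 919 and 435 RPKM, also overlapping (-0.01, adjusted p = 0.973, limma). Whether LTP2 differs in its response from either gene was not tested.

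Among oil genes, OLEO3 had the highest level. It encodes an oleosin, and was at 716, 1265 and 878 RPKM in Col-0 and at 382, 227 and 381 RPKM in tt7-7. AT1G48990, of the oleosin family, was at 47.0, 74.5 and 58.3 RPKM and at 23.1, 10.4 and 31.4 RPKM. KCS18 was at 90.2, 164 and 149 RPKM and at 41.3, 21.3 and 54.9 RPKM. For all 3 genes replicate 2 was the highest Col-0 library and the lowest tt7-7 library. AT1G13930, which RefSeq calls oleosin-B3-like, was at 279, 384 and 279 RPKM and at 93.1, 170 and 105 RPKM, with replicate 2 as the highest library in both genotypes. RWP1, a feruloyl transferase of suberin synthesis, and GDPD6, a phosphodiesterase of glycerophosphodiesters, were at mean levels of 8.76 and 7.72 RPKM in Col-0 with ratios of 2.60 and 3.26.

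The aspartyl proteases and serine carboxypeptidase-like proteins ran from 29.8 to 130 RPKM in mean Col-0 level. AT1G09750, an aspartyl protease, was at 87.9, 167 and 136 RPKM in Col-0 and at 37.1, 22.9 and 53.0 RPKM in tt7-7. AT5G07030, of the same family, was at 65.2, 116 and 73.8 RPKM and at 28.9, 15.0 and 33.3 RPKM. These genes had tt7-7 replicate 2 lowest and Col-0 replicate 2 highest, as KCS18 did. Among the aspartyl proteases of the set AT2G03200 was the exception, at 57.8, 40.3 and 46.2 RPKM and at 16.3, 16.4 and 16.7 RPKM. Its range within tt7-7 of 1.03-fold was the narrowest of the 68 genes, ahead of RBCS1B at 1.13 and RBCS2B at 1.15.

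The carboxypeptidase-like proteins are acyltransferases of seed specialized metabolism. The gene scpl17, needed for benzoylated and sinapoylated glucosinolates in seeds, was at 51.6, 72.7 and 80.9 RPKM in Col-0 and at 19.0, 7.83 and 28.8 RPKM in tt7-7. SCPL19, the enzyme that makes sinapoylcholine, was at 19.9, 31.7 and 37.95 RPKM and at 10.8, 4.85 and 15.2 RPKM. Both were lowest in replicate 1 of Col-0 and in replicate 2 of tt7-7. Their coding sequences are 54.5% identical over aligned positions.

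The cell wall and apoplast class was the largest, and its levels were moderate, from 3.92 to 93.3 RPKM in Col-0. AT1G71695, a peroxidase, was at 69.3, 96.5 and 114 RPKM in Col-0 and at 30.8, 25.2 and 36.05 RPKM in tt7-7. The Ole e 1 and extensin family protein AT5G15780 was at 65.9, 69.0 and 80.3 RPKM and at 20.6, 16.9 and 34.3 RPKM. The germin-like protein gene GER3 (chr5:6975029-6976036, a single exon) was at 21.1, 18.6 and 18.1 RPKM and at 4.01, 4.58 and 1.56 RPKM. Its ratio of 5.70 was the second highest of the set, and its Col-0 levels differed by only 1.17-fold. Unlike most of the set it was lowest in tt7-7 replicate 3.

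AT3G04200, a cupin like GER3, was at 38.5, 71.6 and 55.4 RPKM in Col-0 and at 17.7, 6.504 and 20.4 RPKM in tt7-7, a ratio of 3.72. AT4G29020, a glycine-rich protein, was at 3.38, 4.84 and 6.24 RPKM and at 1.12, 0.700 and 1.39 RPKM, a ratio of 4.51. Of the wall-loosening genes, the expansin gene EXPA5 was at 27.0, 52.4 and 46.5 RPKM and at 17.5, 10.7 and 19.8 RPKM, and EXPA11 had a ratio of 2.90. The xyloglucan endotransglucosylase genes XTH16 and XTH32 were at 4.31 ± 0.392 and 3.92 ± 0.340 RPKM in Col-0 (SD, n = 3) and at 1.51 ± 0.342 and 1.36 ± 0.584 in tt7-7. The expansin pair shares 56.9% of aligned coding positions and the XTH pair 52.6%. FLA9, an arabinogalactan protein with fasciclin domains, was at 18.5, 19.1 and 21.2 RPKM and at 6.34, 5.75 and 7.53 RPKM.

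Membrane transport genes included water channels of the vacuole. TIP2 was at 220, 279 and 247 RPKM in Col-0 and at 63.6, 82.6 and 94.4 RPKM in tt7-7. DELTA-TIP was at 52.6, 60.8 and 62.2 RPKM and at 15.0, 20.1 and 24.2 RPKM. Both were lowest in tt7-7 replicate 1. VIT1, which loads iron into vacuoles of the embryo, was at 8.09, 14.7 and 15.2 RPKM and at 3.70, 2.25 and 4.26 RPKM, a ratio of 3.72. SWEET13, a sucrose transporter, was at 10.7, 8.24 and 6.65 RPKM and at 2.83, 3.28 and 3.998 RPKM. Its levels, and those of OCT5 and AT3G45680, were highest in Col-0 replicate 1, where most of the 68 genes were low.

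The class of receptors, transcription factors and signalling proteins was mostly of low level, with a median Col-0 mean of 8.14 RPKM. RLP55, a receptor-like protein, was the exception at 106, 188 and 98.8 RPKM in Col-0 and 68.6, 21.1 and 58.5 RPKM in tt7-7. LBD40, a LOB-domain transcription factor, was at 45.0, 68.3 and 49.6 RPKM and at 22.6, 15.0 and 25.2 RPKM. TMM, the receptor-like protein that patterns stomata, was at 4.15, 6.75 and 5.23 RPKM and at 1.51, 1.19 and 1.88 RPKM, a ratio of 3.52. The transcription factor gene bHLH071 was at 5.67, 11.1 and 8.71 RPKM and at 2.67, 1.03 and 5.05 RPKM. Its range within tt7-7 of 4.89-fold was among the widest of the set. AT3G10185, of the gibberellin-regulated family, and the cupin gene AT3G10080 lie 10 genes apart on chromosome 3. The first was lowest in tt7-7 replicate 2 at 1.86 RPKM, and the second in the same library at 2.81 RPKM.

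Among the other enzymes, HBP1, a heme-binding protein, was at 238, 299 and 266 RPKM in Col-0 and at 108, 82.2 and 103 RPKM in tt7-7. FBA5, an aldolase, was at 123, 193 and 147 RPKM and at 37.5, 81.3 and 46.7 RPKM, with tt7-7 replicate 2 as its highest mutant library. CYP76C1, a cytochrome P450, was at 18.3, 26.2 and 28.1 RPKM and at 5.88, 9.82 and 11.1 RPKM. The lectin gene AT5G03350 was at 14.6, 22.7 and 24.6 RPKM and at 5.75, 4.21 and 10.4 RPKM. ESM1, which steers glucosinolate breakdown toward isothiocyanates, had a ratio of 2.91 from a Col-0 mean of 10.6 RPKM.

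The uncharacterized and non-coding genes were the least certain. AT3G14395 was at 17.1, 24.7 and 22.0 RPKM in Col-0 and at 7.89, 5.93 and 10.12 RPKM in tt7-7. The 3 non-coding RNAs and AT5G26620 had 10 or fewer recovered reads in at least 1 library. AT3G57157 rested on 14, 11 and 11 reads in Col-0 and on 6, 1 and 7 in tt7-7, and its range within tt7-7 of 7.77-fold, the widest of the set, comes from that 1 read. AT5G26620 followed at 5.46-fold on 4, 2 and 11 reads. Of the 68 genes, 34 had 100 or more reads in every library, a smaller share than the 12418 of 16857 nuclear genes of the table. Of those nuclear genes, 292 had 10 or fewer reads in at least 1 library, a smaller share than in the set. Besides depth, 12 genes overlap another annotated gene of the table by 8 bases or more, among them VIT1, DELTA-TIP, SCPL19 and FBA5, and whether counting used the strand is not given in the sources used here.

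**Figure D2:**
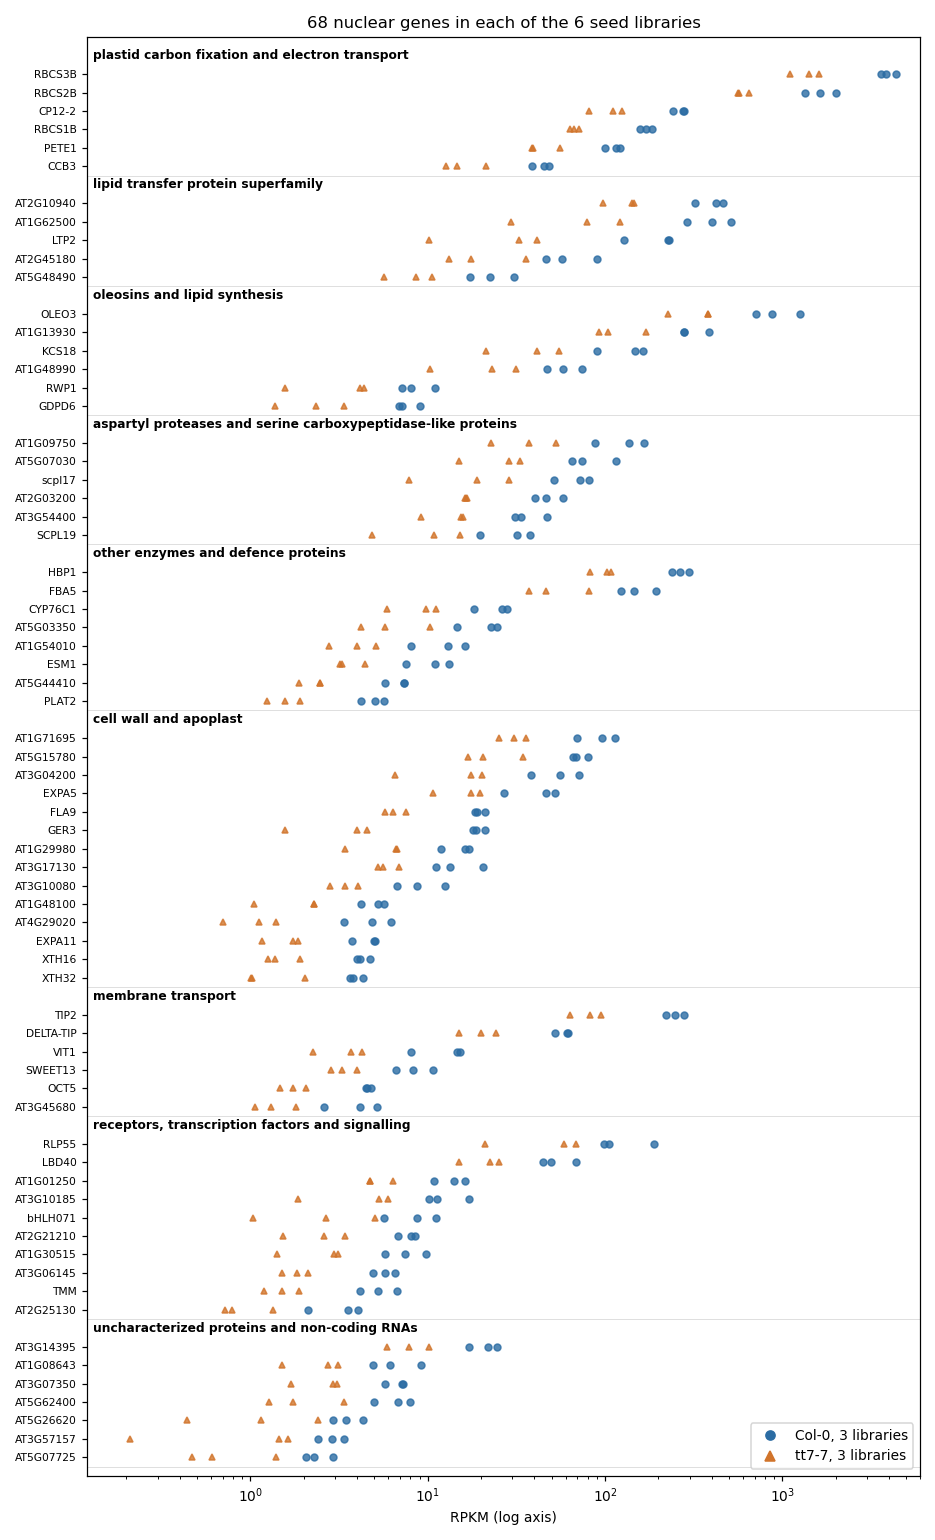
RPKM on a log axis for each of the 68 genes (rows, grouped by role and ordered by Col-0 mean), with blue circles for the 3 Col-0 libraries and orange triangles for the 3 tt7-7 libraries. Every triangle lies left of every circle of its row, as the rule requires, and the ratio of means is largest for LTP2, GER3, AT1G62500 and AT4G29020.

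The rule set no limit on the spread within tt7-7 and did not use replicate numbers. It did use every value of each gene, so the spread and order given here are not independent of the choice of genes. Within tt7-7 the set varied more than other nuclear genes. The median of the highest over the lowest tt7-7 value was 1.86, against 1.24 for nuclear genes of the table, and it reached 2 in 28 of the 68 genes (41.2%, against 5.08%). In the 101 genes that were low but not steady in Col-0 it was 2.98. Replicate 2 was the lowest tt7-7 library for 48 of the 68 genes (70.6%), against 28.1% of nuclear genes. Replicate 3 was the highest for 51 (75%, against 36.5%). The level in tt7-7 replicate 2 was a median of 0.672 times the mean of the other two, against 1.02 for nuclear genes and 0.390 for the 101 unsteady genes. Genes of 1 library share that library, so these shares describe the libraries and carry no test.

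The Col-0 libraries were ordered differently. Replicate 1 was the lowest Col-0 library for 46 of the 68 genes (67.6%), although it was the lowest for 12.8% of nuclear genes and the highest for 62.6%. Replicate 2 was highest for 34 genes (50%, against 24.9%) and replicate 3 for 22 (32.4%, against 12.5%). The 101 unsteady genes were also mostly lowest in replicate 1, in 91 cases (90.1%), and were highest in replicate 3 in 84 cases (83.2%). For 27 of the 68 genes (39.7%, against 10.2%) Col-0 replicate 2 was highest and tt7-7 replicate 2 lowest.

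By role, the counts for replicate 2 as the lowest tt7-7 library stand against the nuclear share of 28.1%. Differences between classes were not tested, and the classes are small. Replicate 2 was lowest for 5 of 6 oleosin and lipid genes, 5 of 6 proteases and carboxypeptidase-like genes, 4 of 5 lipid transfer genes and 8 of 10 receptors and regulators. Median levels in replicate 2 were 0.462, 0.495, 0.589 and 0.568 times the mean of the other mutant libraries in these classes. For the plastid genes replicate 2 was lowest in 3 of 6, with a median of 0.978, and for membrane transport in 3 of 6, with 0.866. Cell wall genes were at 10 of 14 and 0.713, other enzymes and defence proteins at 5 of 8 and 0.807, and uncharacterized and non-coding genes at 5 of 7 and 0.498.

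**Figure D3:**
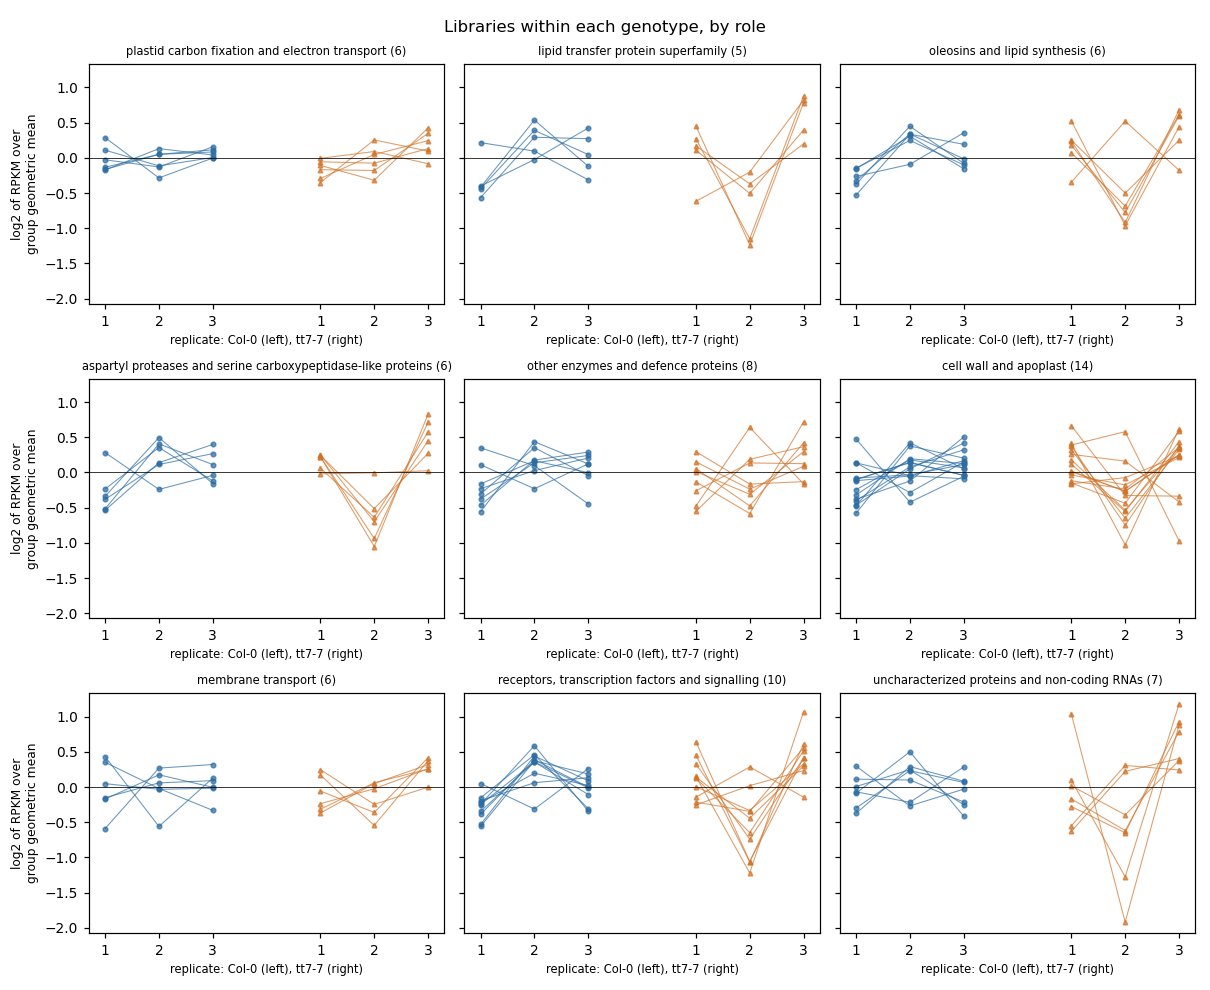
Each panel is a class of genes (number in brackets) and each line a gene. The y axis is log2 of RPKM over the gene's geometric mean within its genotype, for replicates 1 to 3 of Col-0 (blue) and of tt7-7 (orange). Most lines dip at tt7-7 replicate 2 in the panels for lipid genes, proteases and regulators, and lines stay within 0.5 of 0 in the panel for plastid genes.

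Storage transcripts followed the same order within tt7-7. The summed level of 11 storage and oil body genes was 4034, 943 and 6126 RPKM in tt7-7 replicates 1 to 3, lowest in replicate 2. In Col-0 it was 20081, 41923 and 128545 RPKM, a spread that the rule does not allow in the 68 genes. The 68 genes together took 1.18%, 1.29% and 1.29% of reads in Col-0 and 0.389%, 0.388% and 0.492% in tt7-7. Their part in the order of the libraries was not tested.

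Markers of seed tissues are given beside these values, and their counts are to be read against the 51.1% of all tested genes that were called higher. Of 8 seed coat markers 0 were lower and 5 higher in tt7-7, and their sum was 555 to 839 RPKM in Col-0 and 1120 to 1454 RPKM in tt7-7. The tannin gene BAN, for example, was at 78.1 ± 44.6 RPKM in Col-0 and 369 ± 74.5 in tt7-7 (SD, n = 3). Endosperm markers summed to 59.4 to 134 RPKM and 127 to 161 RPKM, with 2 of 5 tested higher. The other 4 of that list (MEA, AGL62, IKU2 and MINI3) are not among the genes of the table. Embryo markers summed to 264 to 340 RPKM and 214 to 268 RPKM. Of 6 tested, LEC2, FUS3 and ABI3 were higher and NF-YB6 was lower, at 98.0, 163 and 124 RPKM in Col-0 and 65.6, 40.9 and 58.4 RPKM in tt7-7 (log2 change -1.21, adjusted p = 0.00177, limma). NF-YB6, the LEC1-like transcription factor of embryos, was highest in Col-0 replicate 2 and lowest in tt7-7 replicate 2.

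Markers of tissues outside the seed were also measured. Those of silique wall and guard cells summed to 42.7 to 47.8 RPKM in Col-0 and 80.6 to 85.9 RPKM in tt7-7, with 2 of 4 tested higher. SPCH and FAMA, the factors that start and end the stomatal lineage in which TMM acts, are not among the genes of the table. The pollen gene VGD1 was at 7.77 to 8.09 and 11.7 to 19.1 RPKM. The leaf myrosinases TGG1 and TGG2 summed to 479 to 635 and 362 to 581 RPKM, which overlapped, and neither passed the test. How far the makeup of tissues in the samples enters into the low levels of the 68 genes was not tested.

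The genes around the set were described by 9 pathway lists. Their counts are to be read against the 8.47% of all tested genes called lower and the 51.1% called higher. Genes called lower numbered 4597 of 16553 with median-ratio scaling and 3585 of 16659 with quantile normalization. They numbered 2448 of 16609 with the 100 highest genes left out of the scaling. In the Calvin cycle list 17 of 18 tested genes fell and 0 rose, with a median log2 change of -0.88, and 4 of the 17 are in the set; with quantile normalization 10 of 18 fell. The aldolases FBA1 and FBA2 fell by 1.14 and 1.16 on the log2 scale (adjusted p = 0.000303 and 0.000806, limma), and RCA, which activates Rubisco, fell by 1.23 (adjusted p = 0.000937, limma). The gene that did not pass was RPE, at 185 ± 12.1 RPKM in Col-0 and 220 ± 48.0 in tt7-7 (SD, n = 3).

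Of 13 genes for electron transport and ATP synthase 9 fell and 0 rose, with a median of -0.80. DRT112, the second plastocyanin, fell by 1.29 (adjusted p = 0.000529, limma) and was the more abundant of the pair, at 1256 ± 54.6 RPKM in Col-0 against 112 ± 11.1 for PETE1. Chlorophyll synthesis, which has no gene in the set, had 7 of 15 lower and 0 higher (median -0.39). That count was 14 with median-ratio scaling and 11 with the 100 highest genes left out of the scaling. Leaving out Col-0 replicate 2 gave 4, and leaving out tt7-7 replicates 1, 2 or 3 gave 3, 4 and 11 in turn. There the regulator GLK2 fell by 0.67 (adjusted p = 0.00135, limma) and CRD1, a cyclase subunit, by 1.08 (adjusted p = 0.00205, limma). In photorespiration and carbonic anhydrase 10 of 13 fell and 0 rose, with a median of -0.71, and 6 of 13 fell with quantile normalization. Lists with no gene in the set thus also held genes that fell.

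Aquaporins fell in 8 of 8 cases, with a median of -1.21, and DELTA-TIP is the gene of that list in the set. TIP2, also a vacuolar water channel of the set, is not on the list. GAMMA-TIP, a vacuolar water channel, fell by 1.30 (adjusted p = 0.000653, limma), and PIP2A, a channel of the plasma membrane, by 1.13 (adjusted p = 0.000652, limma). Surface lipids and lipid transfer proteins had 4 of 16 lower and 1 higher (median -0.12), but 10 lower with median-ratio scaling, 7 with scaling outside the 100 highest genes and 2 without tt7-7 replicate 2. CYP86A2, a fatty acid hydroxylase of cutin synthesis, rose by 1.33 (adjusted p = 0.00575, limma) and CER1, of wax alkane synthesis, fell by 0.56 (adjusted p = 0.00938, limma). Plastid fatty acid synthesis had 0 of 11 lower and 1 higher, the carboxylase subunit gene CAC3, with a median of 0.20. The median of that list was -0.32 with median-ratio scaling and -0.02 when the 100 highest genes were left out of the scaling, so no direction is given for it. Jasmonate genes had 0 of 6 called either way, and 2 of 6 lower with median-ratio scaling. All 11 storage and oil body genes tested fell, with a median of -4.02. That list holds no gene of the set, so it leaves out the oleosin genes OLEO3 and AT1G48990, at -1.53 each.

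**Figure D4:**
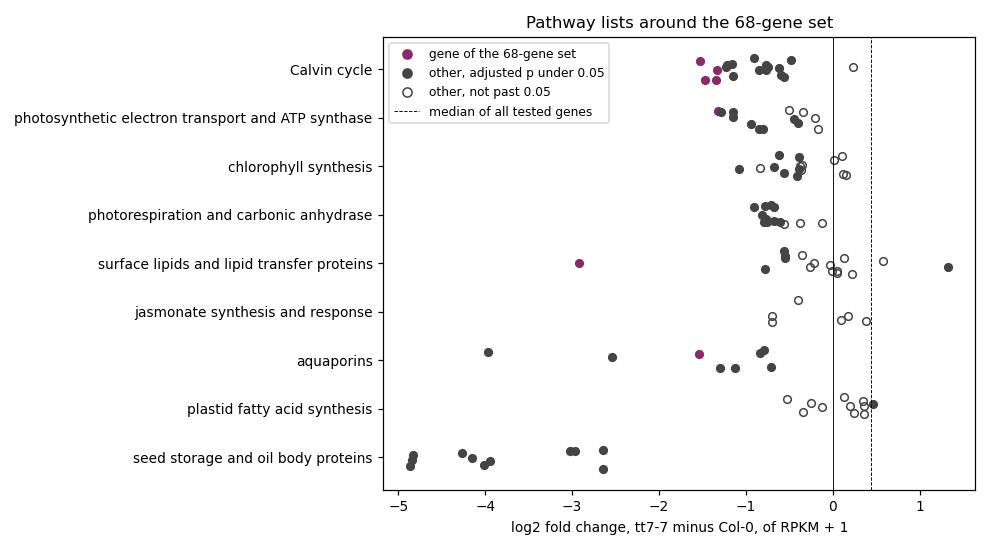
Log2 fold change of RPKM + 1, tt7-7 minus Col-0, for the tested genes of 9 pathway lists. Purple points are genes of the 68, filled grey points other genes past an adjusted p of 0.05, and open points the rest. The dashed line is the median of all tested genes at 0.44. Storage genes lie furthest left. Genes of the set sit at the left edge of the Calvin cycle list, where the rule's limit on the ratio places them.

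The genes of the set were short and had few introns, a property the rule did not use. Of its 65 protein-coding genes 27 had a single exon (41.5%, against 13.0% of nuclear protein-coding genes of the table), and 59 had 4 exons or fewer (90.8%, against 47.4%). The median transcript length was 1290 bases against 1729, and the median protein 255 residues against 372. Median GC content was 42.1% against 41.4%. LTP2 has 2 exons and 118 residues, and GER3, KCS18, AT1G62500 and TMM have a single exon. The trait is not particular to the set. Among the protein-coding genes of the 101 that were low but unsteady in Col-0, 31.6% had a single exon and 85.7% had 4 exons or fewer, with a median transcript of 957 bases and a median protein of 186 residues.

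Exon number went with the change between genotypes in the whole table. The median log2 change was 0.01 for genes with 1 exon, 0.21 for 2, 0.32 for 3 to 5 and 0.69 for 6 or more. The share called lower was 19.2%, 13.1%, 9.44% and 2.14% in the same order. By classes of transcript length, divided at 1235, 1726 and 2303 bases, the medians were 0.15, 0.33, 0.48 and 0.86 from shortest to longest, and 31, 20, 14 and 0 genes of the set fell in them. Among transcripts shorter than the median the change was -0.08 for 1 exon and 0.46 for 6 or more, and among longer ones 0.18 and 0.82. Genes share libraries, so these medians describe the 6 libraries. With each library's trend on length removed, the rule found 51 genes, of which 36 were among the 68. How far length enters into the low levels of the set was not tested.

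**Figure D5:**
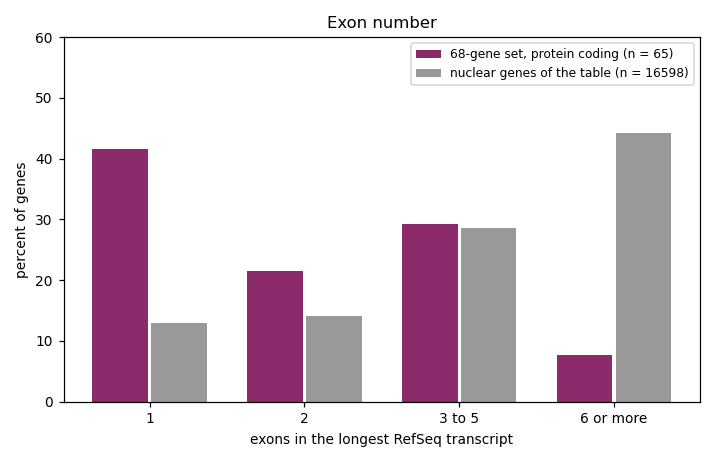
Percent of protein-coding genes by number of exons in the longest RefSeq transcript, for the set (purple, 65 genes) and for nuclear genes of the table (grey, 16598 genes). Single-exon genes make up 41.5% of the set and 13.0% of the table.

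The set was spread over the genome, with 18, 10, 17, 3 and 20 genes on chromosomes 1 to 5. Chromosome 4 held 4.41% of the set and 15.2% of nuclear genes of the table. On it lie KCS18 (chr4:16494205-16495842), FBA5 and AT4G29020.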

How the data were processed

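The authors deposited RPKM values for 16967 genes in 6 samples, written with decimal commas, and kept genes above 2 RPKM in every sample of at least 1 genotype. The submitters' processing notes name cutadapt, FastQC, HISAT2, HTSeq, DESeq2 and the build TAIR10, without versions; strandedness is not given in the sources used here. Coordinates, exons and promoters come from RefSeq's TAIR10.1, matched by locus tag for the 16857 nuclear genes.

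RPKM rises in steps of 1 read. Taking each gene's longest RefSeq transcript as its length gave whole numbers of reads, within 0.02, for 16855 genes (99.3%). Library totals were 13677094 to 20547689 reads, and the 100 genes with the most reads took 16.1% to 34.4% of them. Replicate libraries differed beyond counting noise (chi-square per degree of freedom 22.4 or more), so none was a duplicate.

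Limma 3.58.1 (R 4.3.3) was fitted to log2(RPKM + 1) with a variance trend and no covariate, for 16663 genes with a mean of at least 2 RPKM. The pseudocount understates changes of low genes. P-values are two-sided, with Benjamini-Hochberg adjustment and a threshold of 0.05. The fit and the read recovery were tested on simulated data. Few genes changed in the simulation, equally many up and down, so it does not test the scaling of these libraries. An exact permutation test of 3 against 3 samples cannot go below p = 0.1 and was not used. Python 3.11.15 did the rest.

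The 68 genes and the gene lists were chosen with earlier results of these data known, and the role classes after the values were seen. Genes are named as the 10 highest in Col-0, the 10 with the largest ratio, up to 4 per class, 3 on each side of the ratio limit, the 3 widest and narrowest within tt7-7, neighbours and families, and up to 3 other called genes per list; CCB3, RWP1, GDPD6, FLA9, OCT5, AT3G45680, ESM1, RPE, LTP3, LP1, the markers and the genes named for motifs, overlaps or depth were added after their values were seen.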

Additional observations from a re-analysis of the deposited data

How the results depend on the processing

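The number of genes the rule found moved with scaling and limits. It was 406 with median-ratio scaling (52 shared with the 68), 382 with quantile normalization (56 shared), 150 when the 100 highest genes were left out of the scaling (60 shared), 225 at a ratio of 2, 23 at a ratio of 3 and 32 at a Col-0 range under 1.5. Leaving out 1 library gave 50 to 143 genes. The count without Col-0 replicate 1 was 143, that without tt7-7 replicate 3 was 138 and that without tt7-7 replicate 2 was 50, with 63, 65 and 45 shared.

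The median log2 change of the set was -1.85 with median-ratio scaling and -1.78 with quantile normalization, and -1.53 to -1.24 with 1 library left out. Genes called lower numbered 4597, 3585 and 2448 with median-ratio scaling, quantile normalization and scaling outside the 100 highest genes, and genes called higher 4304 and 4436 with the first 2 of these. At a mean of at least 10 RPKM, where only 9743 genes were tested, 1032 were called lower and 4351 higher. All 38 tested genes of the set were among those called lower. Without 1 library 1004 to 1483 genes were called lower, 7292 to 9100 higher and 66 of the set. With quantile normalization 10 of 18 Calvin cycle genes were called lower. The causes of these shifts were not tested. The removed length trend, the scaling outside the 100 highest genes and limma voom on recovered reads were chosen after seeing the data. With voom 1311 of 16553 genes were called lower. The set's calls, 66 of 66 with voom, follow in every setting from how its genes were chosen and are no check of it.

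Deviations of same-numbered libraries correlated at 0.21, -0.19 and 0.47, and those of libraries with other numbers at -0.51 to 0.32. Whether replicate numbers pair the samples cannot be settled from these values. With the replicate block 1583 genes were called lower and 8587 higher. The set's median of -1.40 cannot change with a block in this balanced design. Its 66 calls follow from how the genes were chosen.

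Depth limits AT3G57157, AT5G07725, AT1G08643 and AT5G26620, which had 10 or fewer reads in at least 1 library.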
